A study of Mus musculus with 6 samples.

Results

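The 40 genes described here are genes of the last part of the cell cycle, from the kinases that start mitosis to the proteins that cut the dividing cell apart. They were chosen by name from the gene table as G2/M and mitotic genes, and all 40 were among the 17866 genes of the table and among the 13305 that passed the filter on low counts. RNA was sequenced from the corneal epithelium of 6-month-old C57BL/6 mice in 6 libraries, 3 from mice labelled wild type (WT) and 3 from mice labelled Rela-/- (KO). Rela encodes RelA, a DNA-binding subunit of the transcription factor NF-κB. According to the study's methods the KO mice were Krt14-Cre; Rela f/f and the WT mice were age-matched controls, so Rela was removed where the promoter of the keratin gene Krt14 had driven the Cre recombinase, which takes in conjunctiva, meibomian gland, skin, oral mucosa and trachea as well as cornea. For sequencing, the epithelium was separated from the rest of the cornea, and the libraries came from separate biological samples. The methods describe a soak in EDTA to lift the epithelium from the stroma under quantitative PCR only.

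A cell enters mitosis when cyclin B switches on the kinase Cdk1. Chromosomes then condense, microtubules form a spindle and attach to kinetochores, and a checkpoint holds the cell back until every chromosome is attached. The anaphase-promoting complex then marks securin and cyclin B for destruction, the sister chromatids part, and the cell is pinched apart at the midbody. In the corneal epithelium dividing cells lie in the basal layer, and their daughters move up and outward as the surface is shed. Most mitotic genes are transcribed only late in the cycle, under a repressor and activator complex that reads a short promoter element, the cell cycle genes homology region (CHR), often beside CCAAT boxes.

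Each library held 20158346 to 20880293 estimated counts. Rela had 1871, 1844 and 1855 counts in WT, against 318, 223 and 313 in KO (log2 fold change -2.60 ± 0.141), which is the direction the labels give. The libraries differed in much besides the mitotic genes. All 5 corneal epithelial markers were lower in KO, and their summed CPM (counts scaled to a common library size) was 66764 to 67781 in WT and 11201 to 13717 in KO. Of 6 markers of suprabasal epidermis 5 were higher and 1 lower, with sums of 28.5 to 39.6 CPM in WT and 11571 to 23971 in KO. All 5 conjunctival markers were higher, with sums of 1932 to 2958 CPM in WT and 52348 to 66980.1 in KO. Of all genes tested, 31.8% were called higher in KO and 30.2% lower at an adjusted p of 0.05, the call used below unless another is named. In such bulk samples, more dividing cells and more RNA per dividing cell cannot be told apart.

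The promoters of 5 members are shown because they belong to the 4 genes that rose most and to the one that fell. Each runs 5′ to 3′ on the strand of its gene, from 250 bases before the transcription start to 50 bases after it, as RefSeq gives them on GRCm38.p6, and capitals mark matches to motifs of late cell cycle promoters. The CHR was searched as the letters TTTGAA, and a form that differs in the middle of the element, TTCGAA, was counted with it. The other motif was CCAAT, and all were read on both strands, so that a CCAAT of the opposite strand appears here as ATTGG.
Ccnb1 (chr13:100786437-100786736, minus strand): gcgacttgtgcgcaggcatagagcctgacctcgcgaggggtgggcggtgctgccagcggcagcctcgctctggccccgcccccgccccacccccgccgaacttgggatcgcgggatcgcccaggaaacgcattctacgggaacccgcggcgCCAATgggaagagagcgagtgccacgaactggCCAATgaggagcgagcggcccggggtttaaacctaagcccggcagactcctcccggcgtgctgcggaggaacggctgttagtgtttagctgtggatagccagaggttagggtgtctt
Cenpa (chr5:30666636-30666935, plus strand): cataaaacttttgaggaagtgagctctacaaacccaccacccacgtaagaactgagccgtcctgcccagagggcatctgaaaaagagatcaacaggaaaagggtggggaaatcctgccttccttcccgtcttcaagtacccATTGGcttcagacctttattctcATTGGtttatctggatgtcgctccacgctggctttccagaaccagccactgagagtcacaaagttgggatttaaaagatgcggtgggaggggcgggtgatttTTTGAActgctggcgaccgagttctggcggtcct
Cdc20 (chr4:118437294-118437593, minus strand): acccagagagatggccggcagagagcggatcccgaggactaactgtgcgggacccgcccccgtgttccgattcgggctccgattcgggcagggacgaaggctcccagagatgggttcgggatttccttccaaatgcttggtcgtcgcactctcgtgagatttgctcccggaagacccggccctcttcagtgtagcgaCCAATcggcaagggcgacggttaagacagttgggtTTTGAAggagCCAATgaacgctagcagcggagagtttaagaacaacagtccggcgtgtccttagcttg
Ckap2 (chr8:22185770-22186069, minus strand): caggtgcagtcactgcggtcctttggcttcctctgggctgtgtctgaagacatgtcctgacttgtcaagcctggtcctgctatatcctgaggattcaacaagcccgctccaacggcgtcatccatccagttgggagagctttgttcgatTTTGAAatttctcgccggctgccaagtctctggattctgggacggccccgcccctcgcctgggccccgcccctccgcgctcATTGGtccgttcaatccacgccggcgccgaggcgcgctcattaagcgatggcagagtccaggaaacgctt
Kif23 (chr9:61946750-61947049, minus strand): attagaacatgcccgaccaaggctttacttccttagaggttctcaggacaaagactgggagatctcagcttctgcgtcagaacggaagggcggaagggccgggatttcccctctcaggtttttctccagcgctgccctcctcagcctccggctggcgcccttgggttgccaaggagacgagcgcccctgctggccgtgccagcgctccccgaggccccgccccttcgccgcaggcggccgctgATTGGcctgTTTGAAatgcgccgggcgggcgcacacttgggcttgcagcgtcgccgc

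Of the 40 mitosis genes, 38 were higher in KO, 1 was lower and 1 did not pass (95.0% higher, against 31.8% of all genes tested). Their median log2 fold change was 1.07, with a range from -0.79 to 1.66, while the median over all genes tested was 0.01. The 38 rises were 1.26-fold to 3.16-fold, and 23 of them had a log2 fold change of 1 or more. At the stricter call of the study's methods (an adjusted p of at most 0.001 and at least a 2-fold change), 21 members were higher, or 52.5% against 11.6% of all genes tested, and 0 were lower, against 8.24%. That count fell to 10 without WT replicate 3 and to 12 without KO replicate 1 or 2, whereas the count at an adjusted p of 0.05 stayed between 37 and 38 in each of 16 alternative analyses. The 2 genes that did not rise were Kif23, a motor of the cytokinetic midzone, and Pttg1, which encodes securin.

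In 38 members every KO library lay above every WT library in CPM, in 1 (Kif23) every KO library lay below, and in 1 (Pttg1) the groups overlapped. Over all genes tested the KO libraries lay wholly above in 34.7% and wholly below in 33.9%. Replicates of KO sat closer together than those of WT. The standard deviation of log2 CPM over 3 libraries had a median of 0.102 in KO and 0.226 in WT, and it was larger in WT for 38 of the 40 genes.

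**Figure D1:**
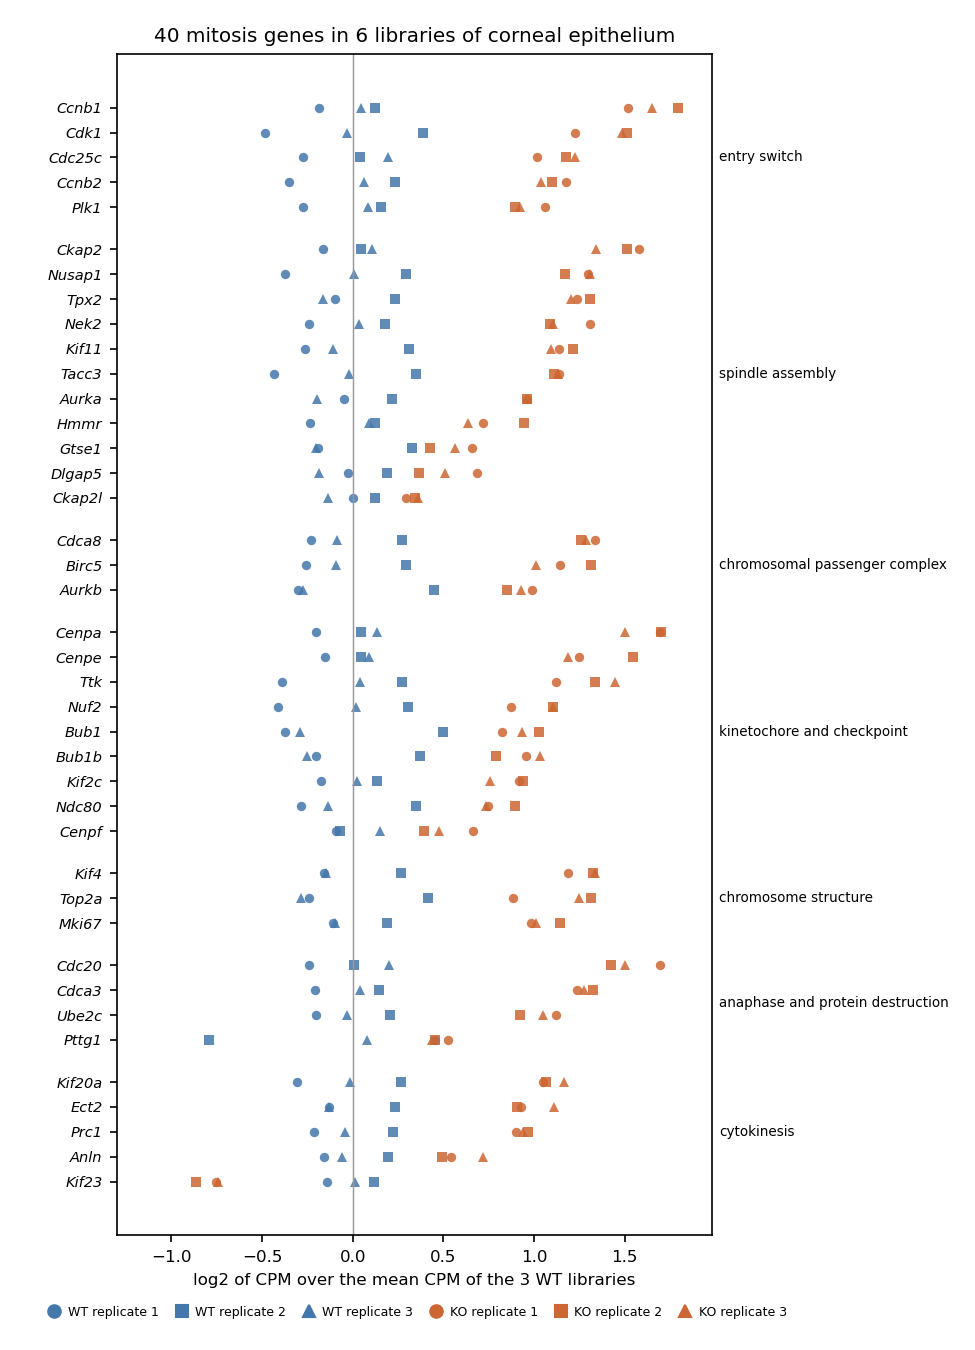
Each row is 1 of the 40 mitosis genes, grouped by role, and each point is 1 library, placed on the horizontal axis by the log2 of its CPM over the mean CPM of the 3 WT libraries. WT libraries are blue and KO libraries orange, with the replicate number given by the shape of the point; the KO points lie to the right of all WT points in 38 rows and to the left in the row of Kif23.

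Changes given in brackets after counts, or as a rise or fall, are log2 fold changes of KO over WT with their standard error (n = 3 per group). The counts of called genes in each role group stand beside 31.8% of all genes tested called higher and 30.2% called lower. The switch into mitosis was higher in KO throughout, 5 of 5 genes with a median log2 fold change of 1.14. Ccnb1 (chr13:100778739-100786486 on GRCm38), which encodes cyclin B1, the activating partner of Cdk1, had 325, 397 and 370 counts in WT, against 959, 1174 and 1070 in KO. Its log2 fold change of 1.66 ± 0.120 (SE, n = 3 per group, adjusted p = 1.18e-05) was the highest of the 40 genes. Cdk1 itself (chr10:69335156-69352912), the kinase that drives the entry, had 227, 409 and 300 counts in WT, against 671, 828 and 816 in KO. WT replicate 2 was the highest of the WT libraries and still below the lowest KO library, and the log2 fold change was 1.41 ± 0.204 (adjusted p = 4.48e-04). Ccnb2, a second B-type cyclin and the member of this group with the highest level per length, had 261, 387 and 337 counts in WT, against 686, 654 and 633 in KO (log2 fold change 1.11 ± 0.151). The smallest rise of the group was that of Plk1, the polo-like kinase of centrosome maturation and spindle function, with 316, 420 and 392 counts in WT, against 723, 649 and 667 in KO (0.96 ± 0.132). Cdc25c, a phosphatase that removes inhibitory phosphates from Cdk1, had 75.9 to 102 counts in WT and 168 to 198 in KO (1.14 ± 0.167).

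Spindle assembly genes were higher in 11 of 11 cases, against 31.8% of all genes tested. Their median log2 fold change was 1.13, with a wide range, from 0.33 to 1.48. Ckap2, a protein of spindle microtubules, had 217, 248 and 253 counts in WT, against 658, 634 and 567 in KO, and the log2 fold change was 1.48 ± 0.120 (adjusted p = 2.15e-05). Nusap1, a microtubule-bundling protein, Tpx2, which activates the kinase Aurora A at the spindle, and Nek2, a kinase of centrosome separation, had log2 fold changes of 1.26, 1.25 and 1.17. The kinesin Kif11, which pushes the spindle poles apart, rose by 1.15, and Tacc3, a microtubule-stabilizing protein, by 1.13. Aurka, the Aurora A kinase itself, rose by 0.96, and Hmmr, a spindle protein and hyaluronan receptor, by 0.77.

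The lower end of the spindle group was made of 3 genes. Gtse1, which regulates microtubule stability, and Dlgap5, a kinetochore-fibre protein, had log2 fold changes of 0.55 ± 0.165 and 0.53 ± 0.139. Ckap2l, the paralog of Ckap2, had 1080, 1156 and 950 counts in WT, against 1199, 1253 and 1272 in KO, and its 0.33 ± 0.0931 (adjusted p = 0.0131) was the smallest of the 38 rises. Ckap2 and Ckap2l thus stood at opposite ends of the same group. The Ckap2l call was lost when total counts replaced the scaling factors (0.24, adjusted p = 0.0654) and in both limma fits on FPKM (adjusted p of 0.0699 and 0.069), and the Gtse1 call when 1 of 3 libraries was left out (WT replicate 1, WT replicate 3 or KO replicate 1).

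The chromosomal passenger complex corrects wrong attachments at the centromere and later moves to the midzone, and its 3 members measured here all rose. Cdca8, which encodes borealin, had 267, 372 and 286 counts in WT, against 714, 683 and 703 in KO (log2 fold change 1.29 ± 0.138). Birc5, which encodes survivin, had 308, 445 and 334 counts in WT, against 737, 838 and 683 in KO (1.16 ± 0.157). Aurkb, the Aurora B kinase of the complex, had 214, 354 and 211 counts in WT, against 474, 434 and 462 in KO (0.92 ± 0.199, adjusted p = 0.00380). In each of the 3 genes WT replicate 2 was the highest WT library.

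Kinetochore and checkpoint genes rose in 9 of 9 cases, against 31.8% of all genes tested, with a median log2 fold change of 0.93. Cenpa, the histone H3 variant that marks centromeres, had 170, 199 and 208 counts in WT, against 572, 580 and 510 in KO. Its log2 fold change of 1.63 ± 0.127 (adjusted p = 1.7e-05) was next to that of Ccnb1. Cenpe, a kinesin that carries chromosomes to the spindle equator, and Ttk, the Mps1 kinase at the head of the checkpoint, rose by 1.34 and 1.30. Of the outer kinetochore, Nuf2 rose by 1.04 and its partner Ndc80 by 0.79, and the checkpoint proteins Bub1 and Bub1b both rose by 0.93. Kif2c, a kinesin that takes microtubule ends apart, rose by 0.88. Cenpf, a large protein of the nuclear matrix and kinetochore, had 624, 624 and 716 counts in WT, against 954, 798 and 852 in KO, the smallest rise of the group (0.52 ± 0.113, adjusted p = 0.00412).

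Mki67, Top2a and Kif4 act on the structure of mitotic chromosomes, and all 3 rose. Mki67 (chr7:135689788-135716409) encodes Ki-67, the coat protein of mitotic chromosomes that is widely used as a stain for cycling cells. Its counts were 2436, 2964 and 2393 in WT, against 4715, 5323 and 4898 in KO, and the log2 fold change was 1.05 ± 0.111 (adjusted p = 8.5e-05). Top2a (chr11:98992947-99024205), the topoisomerase that untangles sister DNA, had 1591, 2479 and 1492 counts in WT, against 3130, 4273 and 4105 in KO. Both groups of Top2a spread widely without meeting, and the log2 fold change of 1.16 ± 0.203 had an adjusted p of 0.00128, outside the study's stricter call. Kif4, a chromosome-bound kinesin, had 240, 319 and 235 counts in WT, against 552, 614 and 622 in KO (1.28 ± 0.140).

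Anaphase and protein destruction held 1 of the largest rises and the gene that did not pass. Cdc20, the activator that brings the anaphase-promoting complex to its targets, had 404, 473 and 530 counts in WT, against 1399, 1172 and 1242 in KO, and the log2 fold change was 1.55 ± 0.133 (adjusted p = 2.87e-05). Ube2c, the ubiquitin-conjugating enzyme of that complex, had 490.4, 640.1 and 535 counts in WT, against 1109, 977 and 1075 in KO (1.03 ± 0.122). With a correction for gene length the rise of Ube2c was 0.45, still called. Cdca3, an adaptor for the destruction of the Cdk1 inhibitor Wee1, rose by 1.28.

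Pttg1 (chr11:43420248-43426248), which encodes the securin that holds separase inactive, had 509, 211 and 381 counts in WT, against 484, 465 and 463 in KO. The KO libraries lay close together, at the level of WT replicate 1, and WT replicate 2, the highest WT library for most members, was the lowest here. The log2 fold change of 0.47 ± 0.262 had an adjusted p of 0.15, it was 0.77 (adjusted p = 0.0311) without WT replicate 1, and it was -0.31 (adjusted p = 0.385) with the length correction. Its deposited counts, rounded here, had a fraction in 4 libraries.

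Of the cytokinesis genes, 4 rose and Kif23 fell. Kif20a, a kinesin of the midzone, had 373, 548 and 444 counts in WT, against 867, 885 and 955 in KO (log2 fold change 1.10 ± 0.144). Prc1, the bundler of antiparallel midzone microtubules, had 624, 829 and 679 counts in WT, against 1223, 1292 and 1272 in KO (0.94 ± 0.118). Ect2, the exchange factor that activates RhoA at the cell equator, rose by 0.98, and Anln, which links the contractile ring to the membrane, by 0.59.

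Kif23 (chr9:61917277-61946813) encodes the kinesin of the centralspindlin complex, which gathers midzone microtubules and positions the cleavage furrow. It had 1304, 1538 and 1401 counts in WT, against 770, 722 and 789 in KO, whole numbers in all 6 libraries. Every KO library was below every WT library, by a wide gap, and the log2 fold change was -0.79 ± 0.0974 (adjusted p = 1.95e-04). Over the 16 alternative analyses it lay between -0.88 and -0.64 and was called lower each time. Kif23 was also among the most abundant members in WT, at 20.4 ± 1.68 FPKM (a level scaled by gene length and library size, SD, n = 3), and went to 11.1 ± 0.341 in KO. Its partner in centralspindlin, Racgap1, which was not one of the 40, was at 0.22 ± 0.106 (adjusted p = 0.103).

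Levels per length ran from 2.33 ± 0.826 FPKM for Bub1 to 29.3 ± 4.04 FPKM for Ube2c in WT (SD, n = 3). The median level of the members was 6.12 FPKM in WT and 12 FPKM in KO. Spearman's rho between the WT level in FPKM and the log2 fold change was -0.078 over the 40 genes, which share the 6 libraries and are not independent. The WT libraries enter both quantities, so the coefficient is not free of that coupling. By the annotation columns of the table, 28 members (70.0%) carried a cell division term, against 2.70% of genes tested. A spindle term was carried by 23 members, a condensed chromosome or centromere term by 17, a centrosome term by 16, and a kinetochore and a midbody term by 14 each.

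The mitotic genes outside the 40 mostly moved the same way. Of 50 other mitosis genes, 38 were higher (76%) and 2 lower (4%), with a median log2 fold change of 0.81. Over all genes tested the shares were 31.8% and 30.2%. Depdc1b, with 16, 20 and 17 counts in WT, against 65, 66 and 51 in KO (1.88 ± 0.248), and Depdc1a, with 107, 138 and 87 in WT, against 270, 324 and 281 in KO (1.51 ± 0.179), rose most. The pair that fell was Bub3, a checkpoint protein, at -0.32 ± 0.109, and Bora, a cofactor of the Aurora A kinase, at -0.25 ± 0.0908, and these calls held in 11 and 9 of the 16 alternatives.

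Condensin, the complex that compacts mitotic chromosomes, exists in a pair of forms with a common core. Of 8 subunits, 6 were higher (75%) and 1 lower (12.5%), against 31.8% and 30.2% of all genes tested, with a median of 0.83. Ncapg, of condensin I, had 181, 250.2 and 175 counts in WT, against 399, 488 and 492 in KO (1.29 ± 0.163), and Smc2, shared by both forms, had 406, 570 and 352 in WT, against 775, 1037 and 1002 in KO (1.19 ± 0.187). The 2 smallest values were those of Ncaph2, which fell by 0.30, and Ncapd3, which was at -0.21 ± 0.114 (adjusted p = 0.137).

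Of 16 subunits and regulators of the anaphase-promoting complex, which ends mitosis, 5 were higher (31.2%), 5 lower (31.2%) and 6 did not pass, shares near those of all genes tested (31.8% and 30.2%), with a median log2 fold change of 0.16. Cdc26 (0.46 ± 0.113) and Anapc16 (0.44 ± 0.0959) stood highest and Cdc23 (-0.47 ± 0.132) and the late activator Fzr1 (-0.42 ± 0.121) lowest. With the length correction Cdc26 was at -0.15.

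Of 20 regulators of cell cycle transcription, 7 were higher (35%) and 5 lower (25%), with a median of 0.10. These shares were again near the 31.8% and 30.2% of all genes tested. The list held Foxm1, Mybl2, Lin9, Lin37, Lin52, Lin54, Rbbp4, E2f1 to E2f8, Tfdp1, Tfdp2, Rb1, Rbl1 and Rbl2. It was not limited to factors of late cell cycle genes, so its counts and median do not describe those alone. Foxm1, the forkhead activator of mitotic genes, had 408, 616 and 452 counts in WT, against 738, 545 and 576 in KO. WT replicate 2 lay inside the KO range, and the log2 fold change was 0.44 ± 0.183 (adjusted p = 0.0635), or 0.64 (adjusted p = 0.0115) without that library. Mybl2, a Myb activator of late cell cycle genes, had 261, 289 and 308 counts in WT, against 266, 263 and 366 in KO (0.17 ± 0.156, adjusted p = 0.377). E2f2 (1.33 ± 0.354) and E2f8 (1.24 ± 0.257) rose, E2f6 fell by 0.70, and E2f7 was at -0.60 ± 0.236 (adjusted p = 0.0547).

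Of 16 genes that hold back the cell cycle, 4 were higher and 4 lower (25% each, against 31.8% and 30.2% of all genes tested), with a median of 0.16. Cdkn1b, which encodes the inhibitor p27, had 2608, 2171 and 3396 counts in WT, against 1328, 1343 and 1410 in KO (-0.90 ± 0.158, adjusted p = 0.00133). Btg1, an antiproliferative gene, had 1329, 1320 and 1457 counts in WT, against 3292, 3082 and 3296 in KO (1.34 ± 0.0883). Wee1, the kinase that keeps Cdk1 inactive, had 574, 697 and 407 counts in WT, against 304, 303 and 411 in KO. Its log2 fold change was -0.61 ± 0.202 (adjusted p = 0.0277), or -0.41 (adjusted p = 0.087) without WT replicate 2, and the call held in 10 of the 16 alternatives. Its relative Pkmyt1 was at 0.07 ± 0.197 and Cdkn1a, which encodes p21, at 0.04 ± 0.165, and neither passed. Cdkn2a, with 26, 41 and 32 counts in WT, against 77, 54 and 46 in KO, rose by 0.95 ± 0.291, a call that held in 11 of the 15 alternatives that tested it.

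**Figure D2:**
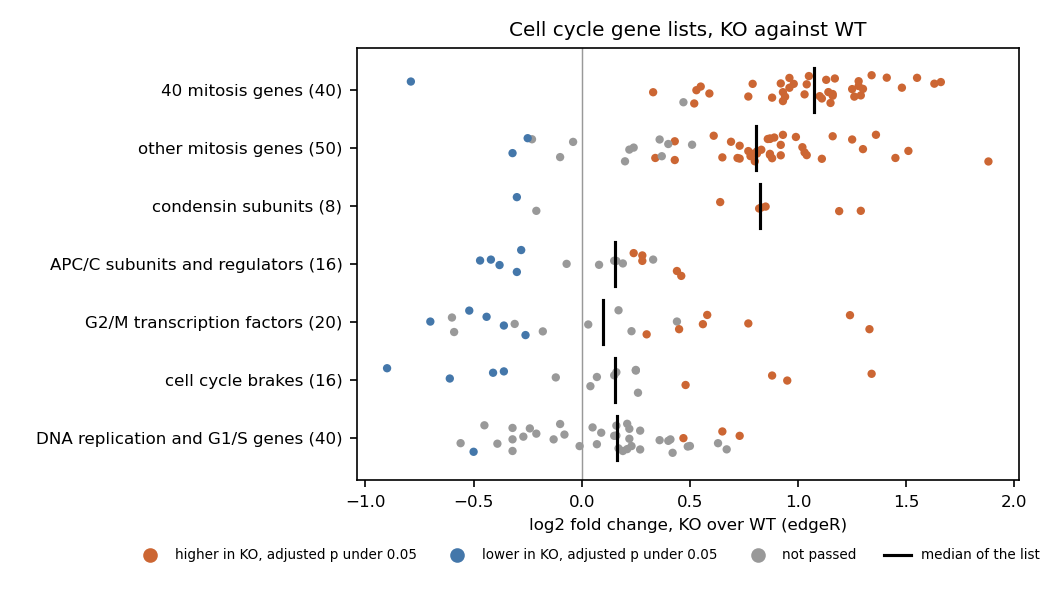
Each point is 1 gene, placed by its log2 fold change of KO over WT from edgeR, with lists in rows (number of genes in brackets), orange for genes called higher, blue for genes called lower at an adjusted p of 0.05 and grey for the rest. Black lines are list medians, 1.07 for the 40 mitosis genes, 0.81 for the other mitosis genes and 0.17 for the replication genes. The row labelled G2/M transcription factors holds the 20 regulators of cell cycle transcription and is not limited to factors of late cell cycle genes.

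The genes of the preceding phase were set beside the mitotic genes, since each cell passes that phase before a mitosis. Of 40 DNA replication and G1/S genes, 3 were higher (7.5%), 1 lower (2.5%) and 36 did not pass. Over all genes tested 31.8% were higher and 30.2% lower. The list took in genes such as the Mcm helicase, the origin complex and the nucleotide-synthesis enzymes, and its median log2 fold change was 0.17. Tk1, a thymidine kinase, had 327, 599 and 317 counts in WT, against 584, 663 and 659 in KO (0.73 ± 0.232, adjusted p = 0.024). Mcm6, of the helicase, had 1377, 2103 and 989 counts in WT, against 825, 873 and 1101 in KO (-0.56 ± 0.245, adjusted p = 0.0746). Gins1 was at 0.67 ± 0.316 (adjusted p = 0.0954), and Rfc5 fell by 0.50 (adjusted p = 0.0414). The calls of Tk1 and Rfc5 held in 11 and 10 of the 16 alternatives.

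The count of replication genes depended on single libraries. Without WT replicate 1, WT replicate 3, KO replicate 2 or KO replicate 3, edgeR called 0 of them higher, and between 1 and 3 were higher at an unadjusted p of 0.05. WT replicate 2 was the highest WT library in 40 of the 40 replication genes and in 33 of the 40 mitosis genes, against 33.2% of all genes tested. The median log2 ratio of WT replicate 2 over the mean of the other WT libraries was 0.87 for replication genes and 0.34 for mitosis genes. Without WT replicate 2, 19 of the 40 replication genes were higher (21 at an unadjusted p of 0.05) and 0 lower in edgeR at either p, with a median log2 fold change of 0.40, where 31.2% of all genes tested were higher and 26.9% lower. The mitosis genes without it were again 38 higher and 1 lower, with a median of 1.24, and 30 met the stricter call. WT replicate 2 stood apart in other genes too, with 1181 CPM of Krt14 against 239 and 318, and 58.8 CPM of S100a9, a gene of neutrophils and of stressed epithelium, against 0.779 and 1.33. The part these differences had in its cell cycle genes was not tested.

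Summed over the 40 mitosis genes, the CPM was 819.5, 1071 and 892 in WT, against 1767, 1855 and 1813 in KO, a ratio of means of 1.95. The replication genes summed to 898, 1454 and 773 CPM in WT and 951, 1118 and 1212 in KO. Mitotic over replication sums were 0.913, 0.736 and 1.15 in WT, against 1.86, 1.66 and 1.5 in KO. All KO libraries lay above all WT libraries in this ratio, and the difference between the lists was not tested.

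**Figure D3:**
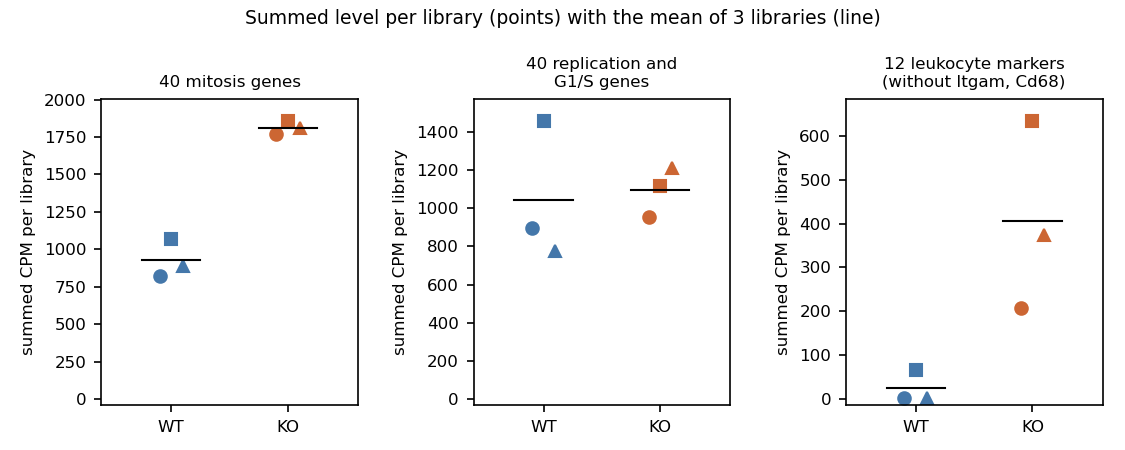
Points give the summed CPM of a gene list in each library, with WT in blue and KO in orange, circles, squares and triangles for replicates 1, 2 and 3, and a line at the mean of 3 libraries. The mitosis genes sum to 819.5 to 1071 in WT and 1767 to 1855 in KO, and the replication genes overlap between groups. The 12 leukocyte markers, shown without Itgam and Cd68, which together were lower in KO, sum to 3.0 to 67.2 in WT and 208 to 633 in KO. With those included, which is not drawn, the 14 markers sum to 287 to 339 in WT and 377 to 843 in KO.

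Markers of other cell types also moved with genotype. Of 14 leukocyte markers, 10 could be tested, 8 of which were higher in KO and 1 lower, and Ms4a1 was at 0 in every WT library. The list summed to 287 to 339 CPM in WT and 377 to 843 in KO. Leaving out Itgam and Cd68, which had 27.2 CPM or more in each WT library, it summed to 3.0, 67.2 and 3.41 in WT, against 208, 633 and 375 in KO, where S100a9 alone gave 117, 401 and 241. Together Itgam and Cd68 were lower in KO than in WT, and the ratio of KO over WT means was 1.91 with them and 16.5 without. Ptprc, which encodes the pan-leukocyte protein CD45, was at 0.233 to 0.595 CPM in WT and 4.36 to 6.13 in KO. Fibroblast and keratocyte markers, 5 of 6 tested higher and 1 lower, summed to 13.4 to 16.9 CPM in WT and 19.2 to 32.3 in KO. Lum was at 0 in every WT library. The 3 endothelial markers, of which 1 was tested and was higher, summed to 0.0458 to 0.237 CPM in WT and 0.810 to 0.897 in KO. Kdr was at 0 in every WT library. These sums are near the floor, with 2 of the 3 genes at or under 3 counts in every WT library and 2 in every KO library. The basal epithelial list, 1 of 7 higher and 4 lower, summed to 32461 to 36428 CPM in WT and 23605 to 25671 in KO. The part of these cells, and of the epidermal and conjunctival markers given above, in the mitotic genes was not tested.

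A window was found in the RefSeq table for 35 of the 40 members, 38 windows in all, and the transcription start of 31 of these lay within 100 bases of the gene start in the deposited table. CHR letters stood in 28 of the 38 windows (73.7%), against 14.3% of the 13483 windows of genes tested, 19.2% of all 32851 windows, 16.2% of windows of replication genes and 65.9% of those of the other mitosis genes. CCAAT stood in 30 windows (78.9%), against 37.5% of windows of genes tested, 37.4% of all, 62.2% of replication genes and 63.6% of the other mitosis genes. Both motifs stood in 25 windows (65.8%), against 5.95% of genes tested, 7.52% of all and 45.5% of the other mitosis genes. These shares describe a set chosen for its role in mitosis and say nothing of which factor was bound in these mice.

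The CHR letters of the mitotic windows lay mostly near the transcription start. Within 50 bases of the start they stood in 25 of 38 windows (65.8%), against 3.73% of genes tested, 5.41% of replication genes and 54.5% of the other mitosis genes. In the first 50 bases after the start they stood in 47.4% of mitotic windows and 1.91% of those of genes tested. The CCAAT letters lay further upstream, in 50% of mitotic windows within the last 50 bases before the start and in 44.7% in the 50 bases before those.

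**Figure D4:**
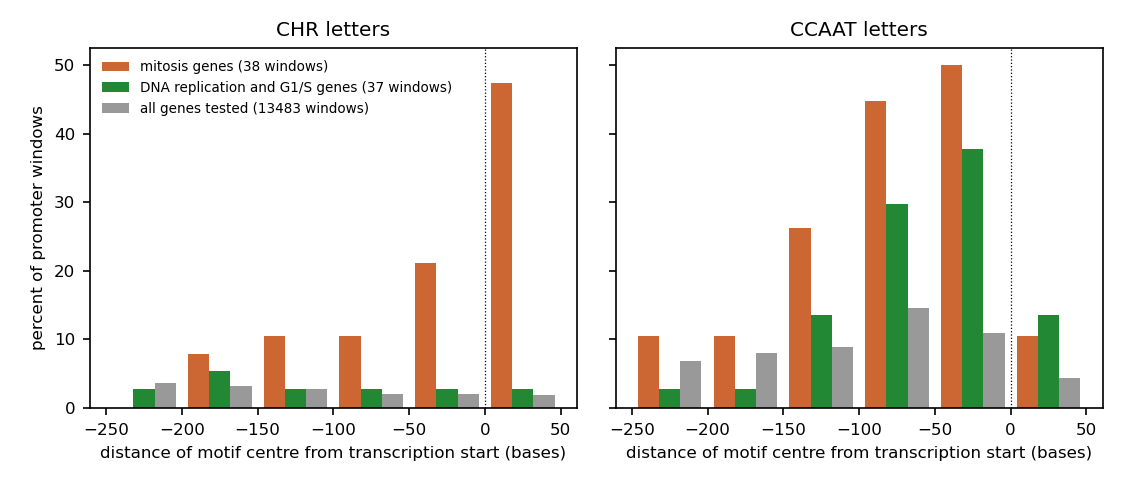
Bars give the percent of promoter windows with a motif centred in each 50-base bin, by distance in bases from the transcription start (dotted line), for mitosis genes, replication genes and all genes tested, CHR letters on the left and CCAAT on the right. The CHR bar of the mitosis genes reaches 47.4% just after the start, where that of all genes tested is 1.91%.

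The letters of single windows are given here beside the direction of the gene, and a link between them was not tested. The window of Ccnb1, the gene that rose most, had neither TTTGAA nor TTCGAA and had 2 CCAAT letters. Other forms of the CHR were not searched. Those of Cenpa and Cdc20 each had 1 CHR and 2 CCAAT. Kif23, which fell, had both a CHR within 50 bases of its start and a CCAAT beside it, as the sequence above shows. Neither motif was found in the windows of Birc5, Nuf2, Nusap1, Tacc3 and Pttg1, of which all but Pttg1 rose. No match says only that these letters were not in this window, and for Pttg1 the transcription start of the window lies 267 bases from the gene start in the deposited table.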

How the data were processed

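RNA from 3 WT and 3 KO samples was depleted of ribosomal RNA and sequenced on a BGISEQ platform, per the study's methods, whereas the labels name an Illumina TruSeq kit. The authors filtered reads, aligned them with Bowtie2 2.2.5 to the mouse reference and estimated expected counts, FPKM and TPM per gene with RSEM 1.2.12, and deposited all 3 in 1 table. The labels name mm9, but the chromosome accessions in the table are those of GRCm38, so coordinates are given on GRCm38. Deposited FPKM values are scaled by gene length and library size. The deposited TPM, scaled to a fixed total, was not used, nor were the columns of the authors' own comparison (fold changes and p-values). Strand in counting was not given in the sources used here, and gene strand was taken from RefSeq, with which the table's strand column matched in 83.9% of 10572 genes compared.

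Members and lists were chosen with earlier results of these data known. The estimated counts, rounded to integers, entered edgeR 4.0.16 (TMM factors, filterByExpr, quasi-likelihood F test, two-sided) over 13305 genes, with Benjamini-Hochberg adjustment. Standard errors are the log2 fold change over the square root of F. CPM used TMM factors, 0.952 to 1.05. Of the 40 members 15 had a deposited count in some library that was not exactly whole at the 2 decimals given, as RSEM gives where reads fit several transcripts, and these are printed rounded. The p-values set the difference between KO and WT against the spread between 3 libraries per group, estimated with information shared over genes. How many animals went into each library was not stated outright. Named genes are Mki67, Top2a, Ccnb1 and Cdk1, the members with the largest and smallest change and the highest FPKM of each of 7 role groups, members not higher, the 2 extremes at each end of the other lists, and Foxm1, Mybl2, Wee1, Pkmyt1 and Cdkn1a. Other members are given by their fold change. Racgap1 and the marker genes named were chosen after their values were seen. Alternatives were DESeq2 1.42.0, limma 3.58.1 on log2(FPKM + 1) and log2(FPKM + 0.1), other scalings and filters, a loess correction for gene length, the replicate number as a block and each library left out. The edgeR script was tested on simulated data. Promoter windows were searched on both strands for the CHR and CCAAT letters given above. Endothelial markers Cdh5 and Cldn5 were not analysed here.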

Additional observations from a re-analysis of the deposited data

How the results depend on the processing

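Of the 40 mitosis genes, 36 that rose and Kif23, which fell, were called in the same direction in all 16 alternatives. The count of members higher at an adjusted p of 0.05 was 37 or 38 and that of members lower 1 throughout. At the study's stricter call the count of 21 went to 11 with limma on log2(FPKM + 1) and to between 10 and 30 with a library left out. The median log2 fold change of the members, 1.07, was 0.88 with limma on log2(FPKM + 1) and between 0.96 and 1.24 with a library left out. The count of 3 replication genes higher was 1 with total counts and with either limma fit, and between 0 and 19 with a library left out. The count of 1 replication gene lower was 2 with total counts and with DESeq2, 0 with a mean count of at least 50, 3 with the length correction, and between 0 and 2 with a library left out. Among the genes named by rule, signs turned for 5, of which Cdc26 alone had been called. With the length correction Pttg1 was at -0.31, Ncapd3 at 0.03, Cdc26 at -0.15 and Cdkn1a at -0.03. Pkmyt1 was at -0.03 with total counts, -0.02 in both limma fits, and between -0.04 and 0.30 with a library left out, below 0 without WT replicate 1, WT replicate 3 or KO replicate 1. Cdkn1a was at -0.05 with total counts, -0.07 in both limma fits, and between -0.13 and 0.19 with a library left out, below 0 without WT replicate 1 or KO replicate 3. The cause was not tested. Total counts moved the median of all genes to -0.09, and limma on log2(FPKM + 1) and log2(FPKM + 0.1) to -0.06 and -0.09.

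Same-numbered WT and KO libraries had correlations of deviations of 0.0542, -0.0217 and 0.061, so the numbers were not taken as a pairing. With the replicate number as a block, 38 members were higher, 1 lower and 19 met the stricter call, and 5 replication genes were higher and 0 lower. With 3 libraries a group, counting error limits the low genes, such as Depdc1b and Cdkn2a, more than the 40 members, whose lowest count in any library was 75.9.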
